A study of Mus musculus with 8 samples.

Results

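The tumour suppressor p53 and 31 genes that regulate it or that it is known to switch on were followed in RNA-seq of mouse embryonic stem cells, the cultured counterpart of the early embryo's pluripotent cells. The 32 genes were taken by symbol, from 57010 genes in the count table, and all 32 passed the filter on low counts that left 17976 genes to test. They comprise p53 with 2 negative regulators, 11 genes of cell cycle arrest and growth control, 11 of cell death, 3 of DNA repair and nucleotide supply, and 4 of metabolism and stress. Each of 4 groups had 2 libraries. HSVTK GANC is ganciclovir-treated stem cells of a reporter line, written 2C::HSVTK, in which 2-cell-embryo (2C) regulation drives the thymidine kinase of herpes simplex virus. HSVTK DMSO is the same line given the solvent DMSO. Control GANC and Control DMSO are stem cells labelled control under the same treatments. The viral kinase phosphorylates ganciclovir, a guanosine analogue, so that cells making the kinase are killed, and the line was built to remove 2C-like cells, a rare state that switches on genes of the 2-cell embryo. The labels give no dose, length of treatment, parental strain, number of clones or construct in the Control cells. Nor do they tell if both libraries of a group were grown as separate cultures. The p-values therefore reflect only how far these libraries scatter, possibly for technical reasons.

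p53 is a transcription factor that is held low by Mdm2 and its partner Mdm4 and accumulates as protein after DNA damage, stalled replication or ribosome stress. It binds DNA as a tetramer at paired copies of a 10-base motif and raises genes that halt the cell cycle, repair DNA or start death through mitochondria, and Mdm2 itself, which closes a feedback loop. Mouse embryonic stem cells carry abundant p53 and a shortened G1 phase, and p53 there is also known to favour differentiation.

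Promoter sequences are shown for 5 members because the p53 motif stands in each of them and because these genes were called in the comparisons that follow. Trp53, Aen, Ei24, Sesn1 and Polk also hold the motif before the start and were called in a comparison, but are not shown. Of these, Ei24 and Sesn1 were called higher in HSVTK DMSO than in Control DMSO, while the 5 shown were called lower. Each line gives the 250 bases before the RefSeq start site in mouse build GRCm38.p6, 5′ to 3′ on the gene's strand, with each match to the 10-base p53 decamer in capitals. The stretches lie at chr17:29090729-29090978 (plus strand) for Cdkn1a, chr11:40755287-40755536 (minus) for Ccng1, chr10:117710759-117711008 (minus) for Mdm2, chr7:45466899-45467148 (minus) for Bax and chr8:22185820-22186069 (minus) for Ckap2.
Cdkn1a: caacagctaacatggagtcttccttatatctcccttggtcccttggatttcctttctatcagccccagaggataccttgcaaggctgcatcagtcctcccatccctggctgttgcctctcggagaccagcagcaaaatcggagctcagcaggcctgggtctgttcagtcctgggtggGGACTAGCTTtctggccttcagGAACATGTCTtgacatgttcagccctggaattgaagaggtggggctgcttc
Ccng1: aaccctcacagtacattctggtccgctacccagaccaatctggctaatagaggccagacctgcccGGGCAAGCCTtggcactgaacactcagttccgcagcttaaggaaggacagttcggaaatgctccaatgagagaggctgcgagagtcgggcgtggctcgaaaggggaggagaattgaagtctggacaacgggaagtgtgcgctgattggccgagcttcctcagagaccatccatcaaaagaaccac
Mdm2: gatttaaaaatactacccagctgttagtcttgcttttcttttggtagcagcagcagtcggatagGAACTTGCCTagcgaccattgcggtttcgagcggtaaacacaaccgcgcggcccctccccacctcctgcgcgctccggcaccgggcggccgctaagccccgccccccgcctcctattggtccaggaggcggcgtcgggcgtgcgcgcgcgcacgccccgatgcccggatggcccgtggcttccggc
Bax: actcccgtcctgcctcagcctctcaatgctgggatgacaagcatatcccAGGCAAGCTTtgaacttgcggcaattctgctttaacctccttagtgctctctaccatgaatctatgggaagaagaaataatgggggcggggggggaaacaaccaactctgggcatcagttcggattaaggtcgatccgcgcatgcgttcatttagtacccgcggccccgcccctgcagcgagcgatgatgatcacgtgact
Ckap2: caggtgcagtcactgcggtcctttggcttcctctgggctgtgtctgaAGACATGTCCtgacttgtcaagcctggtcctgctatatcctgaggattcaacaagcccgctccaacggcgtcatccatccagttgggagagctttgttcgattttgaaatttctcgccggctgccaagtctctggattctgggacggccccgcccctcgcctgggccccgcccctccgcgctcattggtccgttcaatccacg
The decamer equals its own reverse complement, so a match counts for both strands. Cdkn1a holds 2 matches, from -73 to -64 and from -51 to -42 relative to the start, and its other listed start has none. The match runs from -185 to -176 in Ccng1, -186 to -177 in Mdm2, -201 to -192 in Bax and -203 to -194 in Ckap2. RefSeq windows of 300 bases (250 before to 50 after the start) were at hand for 27 of the 32 members, and 11 of these 27 (40.7%) held at least 1 decamer, against 2582 of 27025 genes (9.55%). Counted by window, 12 of 38 member windows (31.6%) and 2745 of 32851 windows of all genes (8.36%) held one. A pair of decamers at most 13 bases apart stood in 1 of the 38 member windows, that of Cdkn1a, and in 24 of all 32851 windows (0.0731%). A match is a description of the letters and was not tested as a binding site.

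Libraries held 29704460 to 34184475 counts. The summed level of 10 embryonic stem cell markers, Pou5f1, Nanog and Sox2 among them, was 5807 to 5953 CPM in HSVTK GANC, 6653 to 6746 in HSVTK DMSO, 5646 to 5918 in Control GANC and 5333 to 5398 in Control DMSO, where CPM is the count scaled to a common library total of 1e+06. Of these 10 markers 5 were called lower in HSVTK GANC than in HSVTK DMSO, as were 15.2% of all tested genes, and 7 higher in HSVTK DMSO than in Control DMSO, as were 16.4% of all tested genes. A gene is called when edgeR's quasi-likelihood F test gave an adjusted p (Benjamini-Hochberg over the 17976 tested genes) under 0.05. The 2C genes went against what the line was built for. Zscan4c, a marker of 2C-like cells with near-identical copies that may share reads, had 8.704 ± 0.247 CPM in HSVTK GANC, 4.15 ± 0.786 in HSVTK DMSO, 4.57 ± 0.602 in Control GANC and 4.67 ± 0.799 in Control DMSO (SD, n = 2 each). The 10 genes of the 2C list summed to 65.9 to 71.3 CPM in HSVTK GANC, 34.5 to 34.5 in HSVTK DMSO, 25.7 to 31.6 in Control GANC and 31.3 to 31.3 in Control DMSO, and 7 of its 9 tested members were called higher in HSVTK GANC than in HSVTK DMSO, where 13.3% of all tested genes were. Libraries labelled HSVTK GANC were therefore not low in 2C transcripts, and every direction between the groups rests on the labels. The share of mitochondrially encoded transcripts was 3.56% and 3.45% in HSVTK GANC and at most 3.17% in the other 6 libraries. Whether these differences have a part in the results for the p53 genes was not tested. In bulk RNA, fewer cells that express a gene and less RNA per cell cannot be told apart.

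Members of the p53 set were higher with ganciclovir than with DMSO in libraries labelled HSVTK, where 21 of 32 were called higher and 0 lower. In the Control libraries 6 were called lower with ganciclovir and 0 higher. Among all tested genes 28.5% were called in the HSVTK comparison, 13.3% higher and 15.2% lower, against 65.6% of the members, and the members' median log2 fold change was 0.32 beside a median within 0.03 of 0 for all genes. The number of genes called, 5119, fell to 3380 with HSVTK DMSO replicate 1 left out and to 3313 with HSVTK DMSO replicate 2 left out. The counts of 0 lower held at an unadjusted p under 0.05 (24 higher, 0 lower), with DESeq2 (20 higher, 0 lower) and with limma on log2(FPKM + 1) over the same genes (17 higher, 0 lower). Calls higher made up 2 of 3 for p53 and its regulators, 9 of 11 in arrest, 6 of 11 in death, 2 of 3 in repair and 2 of 4 in metabolism. Fold changes are written as log2 value ± SE, and adjusted p-values are edgeR's unless another tool is named.

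**Figure D1:**
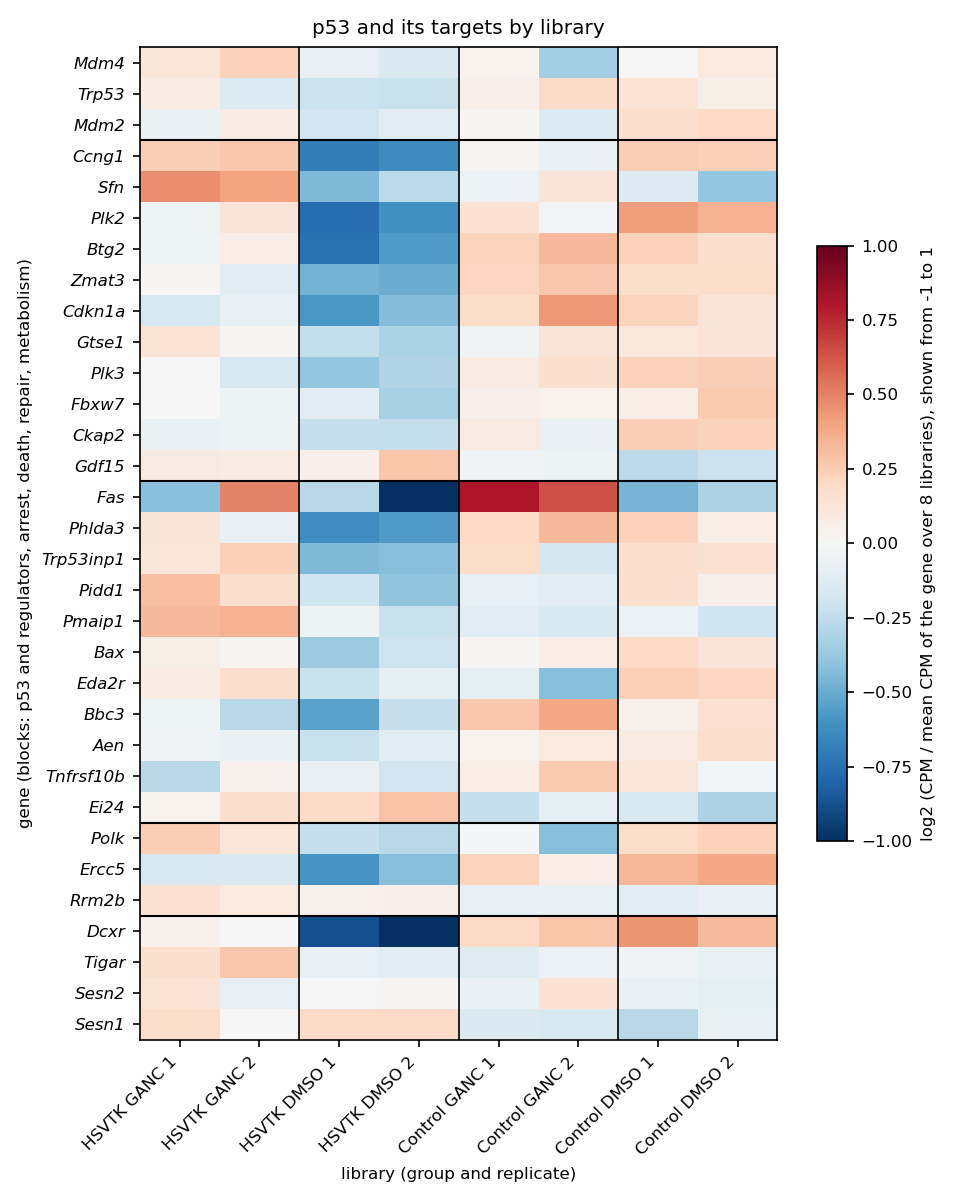
Heat map of the 32 members (rows, by role) in the 8 libraries (columns, 2 per group), coloured by the log2 ratio of each library's CPM to the gene's mean, shown from -1 to 1. Both HSVTK DMSO libraries lie below all 6 others for 17 members, among them Ccng1, Plk2, Dcxr, Btg2 and Trp53. How many of all tested genes share this order was not counted.

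p53 itself and Mdm4 were called higher in HSVTK GANC than in HSVTK DMSO, by small amounts, and Mdm2 was not. Trp53, which encodes p53, had 423 and 364 CPM in HSVTK GANC, 345 and 343 in HSVTK DMSO, 415 and 457 in Control GANC and 441 and 418 in Control DMSO. The HSVTK DMSO libraries were the lowest for Trp53, and the HSVTK GANC pair lay above them without overlap. Its log2 fold change was 0.19 ± 0.06 (adjusted p = 0.0209). Mdm2, the ligase that marks p53 for destruction and a p53 target, had 163 and 180.3 CPM in HSVTK GANC, 149.7 and 158 in HSVTK DMSO, 172 and 156 in Control GANC and 192 and 196 in Control DMSO. The log2 fold change of Mdm2 was 0.16 ± 0.07 (adjusted p = 0.0741) and came under 0.05 without HSVTK GANC replicate 1 (0.0361), Control GANC replicate 1 (0.0442) or Control GANC replicate 2 (0.0462). Mdm4, which binds p53 and blocks its activation, had 241 and 259.9 CPM in HSVTK GANC, 209 and 200.4 in HSVTK DMSO, 226 and 175 in Control GANC and 221 and 237 in Control DMSO. The replicates of Control GANC lay far apart for Mdm4, and both HSVTK GANC libraries exceeded all 6 others. The HSVTK fold change was 0.29 ± 0.08 (adjusted p = 0.00566). The call of Trp53 was lost, with the adjusted p in brackets, without HSVTK GANC replicate 1 (0.484), HSVTK DMSO replicate 1 (0.145) or HSVTK DMSO replicate 2 (0.153), and that of Mdm4 without HSVTK GANC replicate 2 (0.103) or HSVTK DMSO replicate 2 (0.0854). With limma on log2(FPKM + 1) over the same genes, Trp53 had an adjusted p of 0.0602 and Mdm4 of 0.0864, and Mdm4 had 0.111 with DESeq2.

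Among the arrest genes, Ccng1, Sfn, Plk2 and Btg2 had the largest fold changes in the HSVTK cells. Ccng1, cyclin G1, which recruits protein phosphatase to Mdm2, had 263 and 268 CPM in HSVTK GANC, 138 and 144 in HSVTK DMSO, 227 and 212 in Control GANC and 264 and 262 in Control DMSO. HSVTK DMSO stood well below the other groups, with Control GANC next and below both HSVTK GANC and Control DMSO, and the HSVTK fold change was 0.92 ± 0.06 (adjusted p = 2.08e-12). Sfn, stratifin, which in human cells keeps cyclin B and its kinase out of the nucleus, had 34.1 and 32.7 CPM in HSVTK GANC, 18.2 and 20.5 in HSVTK DMSO, 23.7 and 27.03 in Control GANC and 22.7 and 18.9 in Control DMSO. Here HSVTK GANC was the high group, above all 6 other libraries, with a fold change of 0.78 ± 0.10 (adjusted p = 1.73e-06). Plk2, a stress-induced polo-like kinase, had 34.1 and 38.4 CPM in HSVTK GANC, 20.7 and 23.1 in HSVTK DMSO, 38.9 and 34.5 in Control GANC and 46.9 and 44.7 in Control DMSO, and its fold change was 0.72 ± 0.09 (adjusted p = 1.15e-06). Btg2, an antiproliferative adaptor of the deadenylase complex, had 26.2 and 28.3 CPM in HSVTK GANC, 16.1 and 18.2 in HSVTK DMSO, 31.4 and 33.8 in Control GANC and 31.7 and 30.3 in Control DMSO. Btg2 in HSVTK GANC was above HSVTK DMSO and below both Control groups, and its fold change over HSVTK DMSO was 0.67 ± 0.10 (adjusted p = 7.33e-06).

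Cdkn1a, whose product p21 inhibits cyclin-dependent kinases and is the best known arrest target, had 35.2 and 37.4 CPM in HSVTK GANC, 26.3 and 29.2 in HSVTK DMSO, 44.8 and 53.3 in Control GANC and 45.98 and 43.04 in Control DMSO. All 4 Control libraries were above the HSVTK GANC pair, which was above the HSVTK DMSO pair, and the fold change between the HSVTK groups was 0.39 ± 0.09 (adjusted p = 0.00217). Zmat3, an RNA-binding zinc finger protein, had 116 and 107 CPM in HSVTK GANC, 83.1 and 81.8 in HSVTK DMSO, 133 and 139 in Control GANC and 130.4 and 131 in Control DMSO, in the same order as Cdkn1a, with 0.44 ± 0.06 (adjusted p = 7.74e-06). Gtse1, a microtubule-binding protein that counters p53 in G2 phase, had 211 and 195 CPM in HSVTK GANC, 163 and 154 in HSVTK DMSO, 187 and 209 in Control GANC and 206 and 209.7 in Control DMSO. Its HSVTK GANC values overlapped those of both Control groups, and it was 0.36 ± 0.06 higher than in HSVTK DMSO (adjusted p = 0.000106). Plk3, another stress-responsive polo-like kinase, had 45.1 and 40.4 CPM in HSVTK GANC, 34.4 and 36.6 in HSVTK DMSO, 47.6 and 50.3 in Control GANC and 52.9 and 53.3 in Control DMSO, with 0.27 ± 0.08 (adjusted p = 0.0155). Ckap2, a spindle microtubule protein, had 116 and 117 CPM in HSVTK GANC, 103 and 103 in HSVTK DMSO, 129 and 116 in Control GANC and 144 and 142 in Control DMSO, with 0.17 ± 0.07 (adjusted p = 0.0455). For Plk3 and Ckap2 the HSVTK GANC pair lay above the HSVTK DMSO pair without overlap. The call was lost for Cdkn1a without HSVTK DMSO replicate 1 (0.0775). It was lost for Plk3 without HSVTK GANC replicate 1 (0.228), HSVTK DMSO replicate 1 (0.193) or HSVTK DMSO replicate 2 (0.0521). Ckap2 lost it without HSVTK GANC replicate 1 (0.126), HSVTK GANC replicate 2 (0.17), HSVTK DMSO replicate 1 (0.219), HSVTK DMSO replicate 2 (0.233), Control DMSO replicate 1 (0.0944) or Control DMSO replicate 2 (0.0964), with no filter on low counts (adjusted p = 0.0982) and with the replicate block (adjusted p = 0.0569). An antisense gene, AC167363.2, overlaps 273 exon bases of Cdkn1a and had 0.676 CPM beside 39.4 CPM for Cdkn1a, means over the 8 libraries, with the use of strand in counting not given in the sources used here. Exons of 5 other members (Plk3, Bax, Ei24, Rrm2b and Tigar) also overlap those of another gene.

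Fbxw7 and Gdf15 were the arrest members with no call in the HSVTK drug comparison. Fbxw7, the ligase subunit that targets cyclin E and Myc, had 35.3 and 33.96 CPM in HSVTK GANC, 32.5 and 28.01 in HSVTK DMSO, 36.4 and 35.9 in Control GANC and 36.8 and 41.98 in Control DMSO, a fold change of 0.19 ± 0.09 (adjusted p = 0.119). Gdf15, a secreted stress cytokine, had 10.2 and 10.1 CPM in HSVTK GANC, 9.91 and 11.6 in HSVTK DMSO, 9.34 and 9.22 in Control GANC and 8.003 and 8.24 in Control DMSO. Its 4 HSVTK libraries were above the 4 Control libraries and overlapped each other, with -0.09 ± 0.13 (adjusted p = 0.681) between the drug treatments.

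Of the cell death genes, Phlda3, Trp53inp1, Pidd1, Pmaip1, Bax and Eda2r were called higher in HSVTK GANC. Phlda3, which competes with the survival kinase Akt for membrane lipids, had 33.9 and 29.5 CPM in HSVTK GANC, 20.1 and 20.9 in HSVTK DMSO, 35.5 and 38.7 in Control GANC and 36.2 and 32.4 in Control DMSO, a fold change of 0.63 ± 0.10 (adjusted p = 1.45e-05). Trp53inp1, a p53 cofactor that also acts in autophagy, had 197 and 214 CPM in HSVTK GANC, 134 and 136 in HSVTK DMSO, 206 and 162 in Control GANC and 204 and 202 in Control DMSO. Control GANC replicates differed for Trp53inp1 and the HSVTK pairs did not overlap, and the fold change was 0.61 ± 0.08 (adjusted p = 5.98e-07). Pidd1, the scaffold that activates an initiator caspase, had 41.6 and 37.9 CPM in HSVTK GANC, 29.6 and 25.6 in HSVTK DMSO, 32.1 and 31.3 in Control GANC and 37.8 and 35.1 in Control DMSO, with 0.53 ± 0.09 (adjusted p = 6.72e-05). Pmaip1, the BH3-only protein NOXA, had 32.6 and 33.1 CPM in HSVTK GANC, 25.1 and 22.3 in HSVTK DMSO, 24.001 and 23.3 in Control GANC and 24.99 and 22.6 in Control DMSO. HSVTK GANC was above all other libraries for Pmaip1 while the other 3 groups overlapped, and its fold change was 0.47 ± 0.10 (adjusted p = 0.000381). Bax, which forms pores in the mitochondrial outer membrane, had 124 and 122 CPM in HSVTK GANC, 92.8 and 104 in HSVTK DMSO, 120.4 and 125 in Control GANC and 137 and 130.5 in Control DMSO, with 0.32 ± 0.07 (adjusted p = 0.000443). Eda2r, a receptor for an ectodysplasin, had 63.8 and 68.2 CPM in HSVTK GANC, 51.9 and 56.98 in HSVTK DMSO, 56.8 and 45.1 in Control GANC and 71.7 and 70.3 in Control DMSO, with 0.28 ± 0.09 (adjusted p = 0.0163). Eda2r was high in Control DMSO and HSVTK GANC and lower in the other groups. The call was lost for Bax without HSVTK DMSO replicate 1 (0.061) and for Eda2r without HSVTK GANC replicate 2 (0.164) or HSVTK DMSO replicate 1 (0.228), and limma on log2(FPKM + 1) gave Eda2r an adjusted p of 0.0828.

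The other 5 death genes were not called between the HSVTK treatments. Bbc3, the BH3-only protein PUMA, had 33.6 and 28.6 CPM in HSVTK GANC, 23.9 and 29.6 in HSVTK DMSO, 41.8 and 45.3 in Control GANC and 35.7 and 38.4 in Control DMSO. HSVTK GANC and HSVTK DMSO overlapped for Bbc3 below both Control groups, and the fold change between them was 0.22 ± 0.10 (adjusted p = 0.117), which came under 0.05 without HSVTK DMSO replicate 2 (0.0356). Aen, a nuclease that acts in apoptosis, had 156 and 153 CPM in HSVTK GANC, 137 and 148 in HSVTK DMSO, 164 and 171 in Control GANC and 171 and 179.9 in Control DMSO, with 0.11 ± 0.06 (adjusted p = 0.181). Ei24, a membrane protein of the endoplasmic reticulum, had 103 and 112 CPM in HSVTK GANC, 115 and 122 in HSVTK DMSO, 85.3 and 94.1 in Control GANC and 89.6 and 81.1 in Control DMSO. Its order was unlike that of Bax: the HSVTK libraries were above all 4 Control libraries, and the HSVTK GANC pair lay below the HSVTK DMSO pair, with -0.14 ± 0.07 (adjusted p = 0.147). Fas, a death receptor, had 2 to 20 counts per library, and Tnfrsf10b, the receptor for TRAIL, 8.05 to 11.7 CPM. Neither was called in any comparison, and at the counts of Fas a moderate difference was not detectable.

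Of the DNA repair members, Polk and Ercc5 were called higher in HSVTK GANC. Polk, the translesion polymerase kappa, had 17.4 and 15.99 CPM in HSVTK GANC, 12.5 and 12.1 in HSVTK DMSO, 14.5 and 10.9 in Control GANC and 16.7 and 17.3 in Control DMSO, a fold change of 0.44 ± 0.12 (adjusted p = 0.00866). Ercc5, the endonuclease XPG of nucleotide excision repair, had 24.2 and 24.4 CPM in HSVTK GANC, 17.9 and 20.1 in HSVTK DMSO, 31.4 and 28.1 in Control GANC and 33.8 and 35.2 in Control DMSO. HSVTK DMSO was lowest for Ercc5 and the HSVTK GANC pair, 0.36 ± 0.10 higher (adjusted p = 0.00682), stayed below both Control groups. Rrm2b, the p53-inducible subunit of ribonucleotide reductase, was at 5.26 to 6.31 CPM and was not called in any comparison. The call was lost for Polk without HSVTK GANC replicate 1 (0.0922) or HSVTK DMSO replicate 2 (0.0761) and for Ercc5 without HSVTK DMSO replicate 1 (0.148), and limma on log2(FPKM + 1) gave Polk an adjusted p of 0.063.

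In metabolism, Dcxr and Tigar were called higher and both sestrins were not. Dcxr, a reductase of dicarbonyls and L-xylulose, had 11.2 and 10.97 CPM in HSVTK GANC, 5.95 and 5.14 in HSVTK DMSO, 12.4 and 13.2 in Control GANC and 14.8 and 13.6 in Control DMSO, the largest fold change among the called members at 1.00 ± 0.14 (adjusted p = 2.14e-06). HSVTK DMSO stood far below the other groups for Dcxr, and HSVTK GANC was just under the Control libraries. Tigar, which lowers fructose bisphosphate and slows glycolysis, had 102 and 109.6 CPM in HSVTK GANC, 86.02 and 83.9 in HSVTK DMSO, 83.6 and 87.2 in Control GANC and 88.5 and 86.1 in Control DMSO. HSVTK GANC was the high group for Tigar and the other groups lay together, with 0.32 ± 0.07 (adjusted p = 0.000657). Sesn1, a sestrin that restrains mTORC1, had 21.8 and 19.2 CPM in HSVTK GANC, 21.996 and 21.99 in HSVTK DMSO, 17.4 and 17.2 in Control GANC and 15.9 and 18.3 in Control DMSO, with -0.10 ± 0.11 (adjusted p = 0.525). Sesn2, its paralogue, ranged from 191 to 225 CPM over the 8 libraries and was not called in any comparison.

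Ganciclovir in Control cells left most members uncalled: 6 of 32 were called lower and 0 higher, where 8.08% of all tested genes were called, 4.73% higher and 3.35% lower. The members' median was -0.05. The 1453 genes called became 592 without Control DMSO replicate 1, 433 without Control DMSO replicate 2 and 728 without Control GANC replicate 2. Eda2r had -0.48 ± 0.09 (adjusted p = 0.00103), Polk -0.41 ± 0.12 (adjusted p = 0.0382) and Plk2 -0.32 ± 0.09 (adjusted p = 0.0266). Ccng1 had -0.26 ± 0.06 (adjusted p = 0.00547), Mdm2 -0.24 ± 0.07 (adjusted p = 0.0192) and Ckap2 -0.23 ± 0.06 (adjusted p = 0.0282). At an unadjusted p under 0.05, 2 members were higher and 9 lower. DESeq2 called 0 higher and 6 lower, and limma on log2(FPKM + 1) called 0 in either direction. Each call but that of Eda2r depended on single libraries. Ccng1 lost its call without Control DMSO replicate 1 (0.0808) or Control DMSO replicate 2 (0.089). Mdm2 lost it without Control GANC replicate 2 (0.172), Control DMSO replicate 1 (0.111) or Control DMSO replicate 2 (0.195). Plk2 lost it without Control GANC replicate 2 (0.226), Control DMSO replicate 1 (0.208) or Control DMSO replicate 2 (0.109). Polk lost it without HSVTK DMSO replicate 1 (0.0548), HSVTK DMSO replicate 2 (0.054), Control GANC replicate 2 (0.435), Control DMSO replicate 1 (0.123) or Control DMSO replicate 2 (0.211). Ckap2 lost it without HSVTK DMSO replicate 1 (0.0693), HSVTK DMSO replicate 2 (0.0701), Control GANC replicate 2 (0.268), Control DMSO replicate 1 (0.203) or Control DMSO replicate 2 (0.191). With Control GANC replicate 1 left out, 10 members were called, 2 higher and 8 lower; 2 were called without Control GANC replicate 2, 1 without Control DMSO replicate 1 and 1 without Control DMSO replicate 2. The added calls were Mdm4 (0.000205), Sfn (0.0276), Trp53inp1 (0.00176) and Sesn2 (0.0167), with the adjusted p in brackets.

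**Figure D2:**
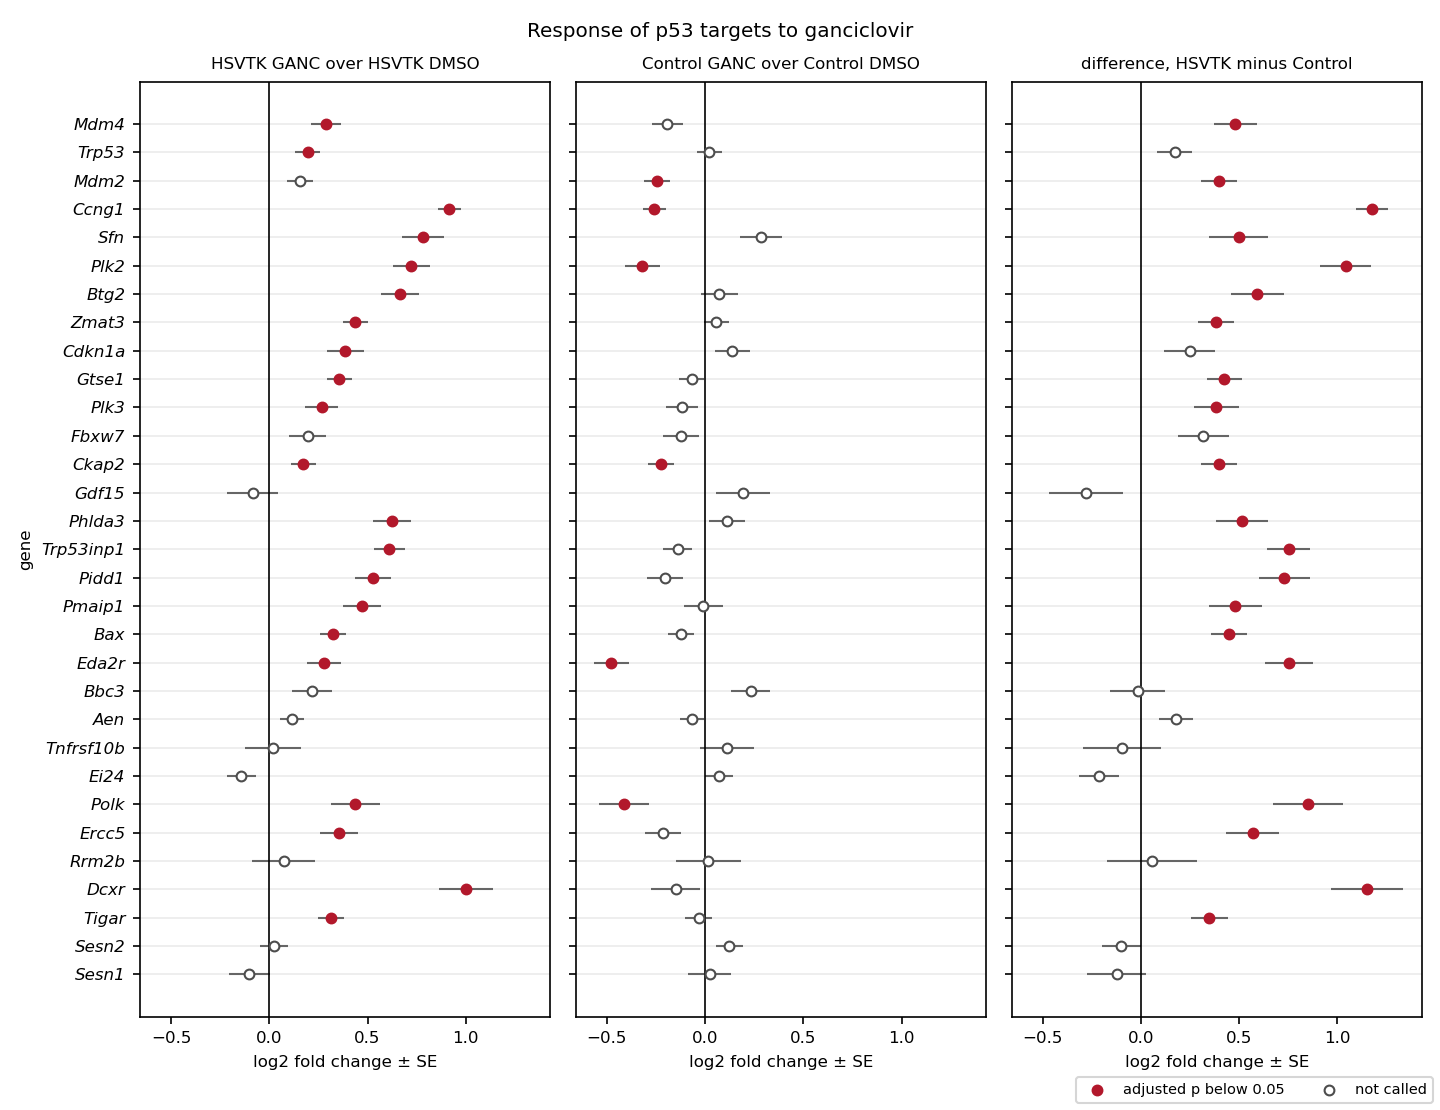
Log2 fold change of ganciclovir over DMSO (x axis) for the members other than Fas (rows, by role), in HSVTK and in Control cells, each with its SE. The last panel gives the difference of these responses, HSVTK minus Control, on the same axis. Filled points mark calls; 21 members are called higher in HSVTK and 6 lower in Control, and Ccng1, Plk2 and Dcxr lie farthest apart between the cell groups.

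The responses of the cell groups differed for 20 members when the difference itself was tested, and in all 20 the log2 response in HSVTK cells was the greater one. Of all tested genes 25.6% had a called difference, 11.6% with HSVTK the greater and 14% with Control the greater. The members' median difference was 0.40, with 0 called the other way (1 at an unadjusted p under 0.05, 0 with DESeq2 and 0 with limma). Ccng1 had a difference of 1.18 ± 0.08 (adjusted p = 1.6e-11), Dcxr of 1.15 ± 0.18 (adjusted p = 2.77e-05) and Plk2 of 1.04 ± 0.13 (adjusted p = 7.63e-07). Polk, Eda2r, Trp53inp1 and Pidd1 followed with 0.85 ± 0.18, 0.75 ± 0.12, 0.75 ± 0.11 and 0.73 ± 0.13. For Cdkn1a the difference of 0.25 ± 0.13 (adjusted p = 0.164) did not pass, nor did that of Trp53 at 0.17 ± 0.09 (adjusted p = 0.162). Without Control GANC replicate 2 (0.0361) the difference of Cdkn1a passed, and that of Trp53 passed without HSVTK GANC replicate 2 (0.0363) or Control GANC replicate 2 (0.0386). That of Ei24, with HSVTK the lower, passed without Control GANC replicate 1 (0.0221). Calls of a difference held under every alternative tried for 10 members: Ccng1, Btg2, Gtse1, Plk2, Ckap2, Zmat3, Bax, Pidd1, Trp53inp1 and Dcxr. The call was lost for Sfn without HSVTK GANC replicate 1 (0.0607), HSVTK DMSO replicate 1 (0.112), Control GANC replicate 1 (0.0719) or Control DMSO replicate 1 (0.161). It was lost for Plk3 without HSVTK GANC replicate 1 (0.111), HSVTK DMSO replicate 1 (0.111), Control GANC replicate 1 (0.053), Control DMSO replicate 1 (0.0535) or Control DMSO replicate 2 (0.0674). Phlda3 lost it without HSVTK GANC replicate 1 (0.0547) or Control DMSO replicate 1 (0.0558). Pmaip1 lost it without HSVTK DMSO replicate 2 (0.0927) or Control DMSO replicate 1 (0.0844). Tigar lost it without HSVTK GANC replicate 2 (0.059), HSVTK DMSO replicate 2 (0.065) or Control DMSO replicate 1 (0.0589). DESeq2 gave Mdm4 an adjusted p of 0.0555. With limma on log2(FPKM + 1) of unfiltered genes Mdm2 (0.0758), Eda2r (0.0503), Polk (0.0665) and Ercc5 (0.0541) also missed the threshold.

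The HSVTK and Control drug comparisons contrast groups that share no library. Their calls still come from the same fit to all libraries, with a shared estimate of the spread. Ccng1, Ckap2, Eda2r, Plk2 and Polk were called in both, 23.8% of the 21 HSVTK calls and 83.3% of the 6 Control calls, and all 5 had opposite signs. Over all tested genes 770 were called in both, 15.04% of the HSVTK calls and 52.99% of the Control calls, and 654 of them (84.9%) had opposite signs.

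Without drug, most members were lower in HSVTK than in Control cells. In HSVTK DMSO 21 of 32 were called lower than in Control DMSO and 3 higher, with a median log2 fold change of -0.40, where 33.7% of all tested genes were called, 17.3% lower and 16.4% higher. DESeq2 also called 21 lower and 3 higher. Dcxr had -1.36 ± 0.13 (adjusted p = 4.06e-09), Plk2 -1.06 ± 0.09 (adjusted p = 4.6e-10) and Ccng1 -0.90 ± 0.06 (adjusted p = 1.06e-12). Ercc5, Btg2, Phlda3, Cdkn1a and Zmat3 had -0.86 ± 0.10, -0.85 ± 0.10, -0.74 ± 0.10, -0.68 ± 0.09 and -0.67 ± 0.06. Trp53 had -0.32 ± 0.06 (adjusted p = 0.000203). Ei24, Gdf15 and Sesn1 went the other way with 0.47 ± 0.07 (adjusted p = 6.65e-06), 0.41 ± 0.13 (adjusted p = 0.0195) and 0.37 ± 0.11 (adjusted p = 0.00822). The HSVTK DMSO group had the lowest mean CPM of the 4 groups for 24 of the 32 members, and HSVTK GANC for 0. The same count was not made over all tested genes. Calls were lost for Fbxw7 without HSVTK DMSO replicate 2 (0.0876) or Control DMSO replicate 2 (0.0771), for Bbc3 without HSVTK DMSO replicate 1 (0.0518) and for Pidd1 without HSVTK DMSO replicate 2 (0.0608). They were lost for Sesn1 without Control DMSO replicate 1 (0.157) and for Gdf15 without HSVTK DMSO replicate 2 (0.236), Control DMSO replicate 1 (0.108) or Control DMSO replicate 2 (0.0655). With limma on log2(FPKM + 1) of unfiltered genes the call was also lost for Trp53 (0.067), Mdm2 (0.0505), Eda2r (0.123), Polk (0.131), Fbxw7 (0.0813), Bbc3 (0.0734) and Sesn1 (0.0524). Mdm4 was called lower without Control GANC replicate 1 (0.0218) or Control GANC replicate 2 (0.0216). The HSVTK DMSO libraries are also those of the HSVTK drug comparison, so the values of one are not independent of the other.

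**Figure D3:**
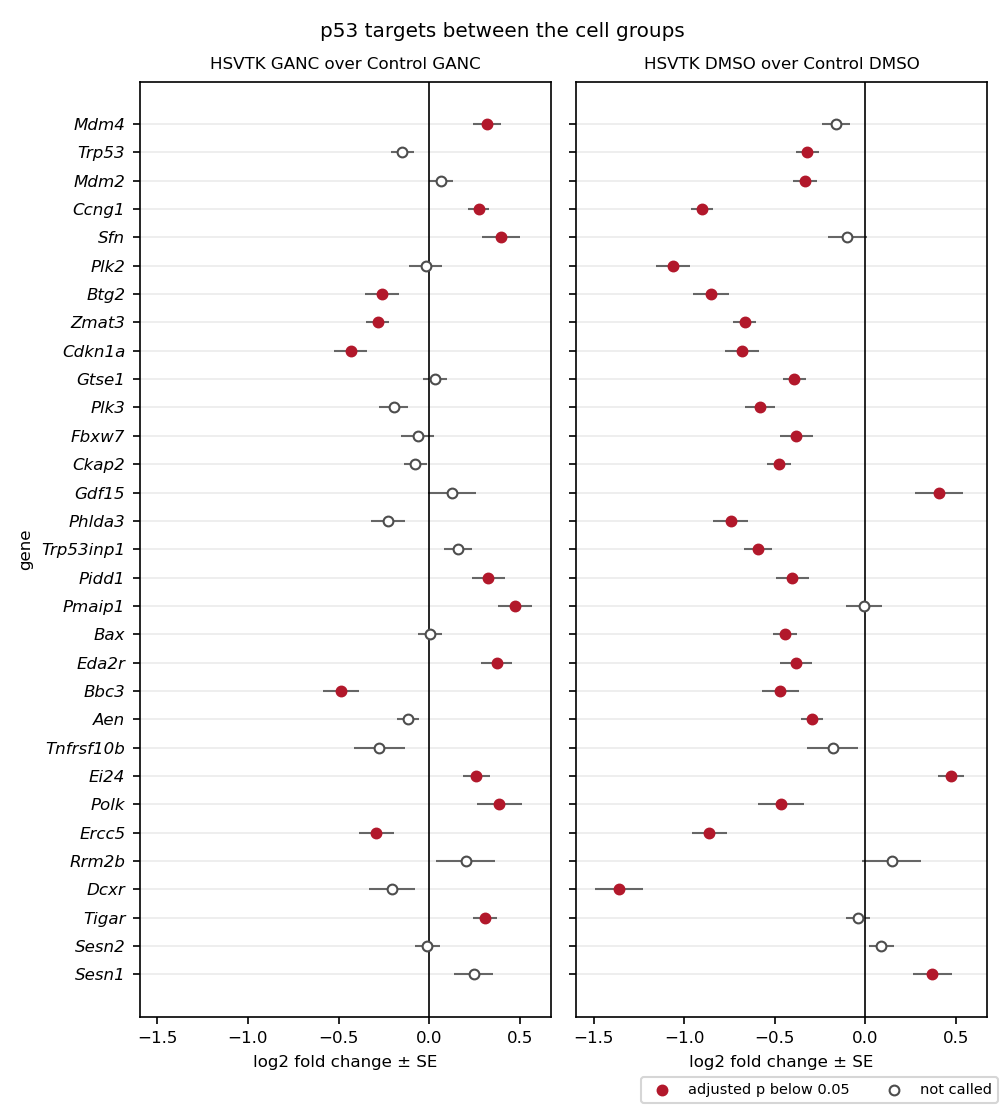
Log2 fold change of HSVTK over Control (x axis) for the members other than Fas (rows, by role), under ganciclovir and under DMSO, each with its SE. Under DMSO 21 members are called lower and 3 higher; under ganciclovir 5 are called lower and 9 higher.

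Under ganciclovir the members were called in both directions. In HSVTK GANC 9 members were called higher and 5 lower than in Control GANC, with a median of -0.00, where 26.1% of all tested genes were called, 11.1% higher and 14.9% lower. Without HSVTK GANC replicate 2 the calls numbered 9 members, against 14 with all libraries, and 2999 genes, against 4685. Pmaip1, Sfn, Polk, Eda2r and Pidd1 had 0.47 ± 0.10, 0.40 ± 0.10, 0.39 ± 0.12, 0.37 ± 0.09 and 0.33 ± 0.09. Mdm4, Tigar, Ccng1 and Ei24 had 0.32 ± 0.08, 0.31 ± 0.07, 0.27 ± 0.06 and 0.26 ± 0.07. Bbc3 had -0.49 ± 0.10 (adjusted p = 0.000478), Cdkn1a -0.43 ± 0.09 (adjusted p = 0.000602), Ercc5 -0.29 ± 0.10 (adjusted p = 0.0234), Zmat3 -0.28 ± 0.06 (adjusted p = 0.00132) and Btg2 -0.26 ± 0.09 (adjusted p = 0.0422). Calls of Ccng1, Pmaip1 and Tigar held under every alternative. The call was lost for Sfn without HSVTK GANC replicate 1 (0.0528) or Control GANC replicate 1 (0.0829), for Eda2r without Control GANC replicate 2 (0.0817) and for Pidd1 without HSVTK GANC replicate 1 (0.121). It was lost for Polk without HSVTK GANC replicate 1 (0.158), HSVTK GANC replicate 2 (0.0533) or Control GANC replicate 2 (0.355) and for Mdm4 without HSVTK GANC replicate 2 (0.0706) or Control GANC replicate 2 (0.135). Ei24 lost it without HSVTK GANC replicate 2 (0.157) or Control GANC replicate 1 (0.116). Ercc5 lost it without HSVTK GANC replicate 1 (0.0852), HSVTK GANC replicate 2 (0.0835) or Control GANC replicate 1 (0.152), and Btg2 without HSVTK GANC replicate 1 (0.219), HSVTK GANC replicate 2 (0.0622) or Control GANC replicate 2 (0.197). Calls were gained for Trp53 without HSVTK GANC replicate 1 (0.00686) or Control GANC replicate 1 (0.00531) and for Trp53inp1 without Control GANC replicate 1 (0.00031). Plk3 gained one without HSVTK GANC replicate 1 (0.0409) or Control GANC replicate 1 (0.0447), and Phlda3 without HSVTK GANC replicate 1 (0.0359) or Control GANC replicate 1 (0.0333). Library size scaling ended the calls of Btg2 (adjusted p = 0.106) and Ercc5 (0.0643) and added Trp53inp1 (0.0486) and Sesn1 (0.0424), both higher, for 11 members higher and 3 lower. DESeq2 ended the calls of Btg2 (0.0555) and Mdm4 (0.0682). Limma on log2(FPKM + 0.1) of unfiltered genes called none of the 5 lower members, with an adjusted p of 0.0647 for Cdkn1a, 0.0856 for Bbc3 and 0.0526 for Zmat3, nor Sfn (0.0568), Eda2r (0.0819), Pidd1 (0.055), Ei24 (0.063), Mdm4 (0.134) or Polk (0.133).

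The cell group comparisons under DMSO and under ganciclovir also contrast groups that share no library, with calls from the same fit. Bbc3, Btg2, Cdkn1a, Ei24, Ercc5 and Zmat3 were called in both with the same sign, and Ccng1, Eda2r, Pidd1 and Polk in both with opposite signs, which together are 41.7% of the 24 DMSO calls and 71.4% of the 14 ganciclovir calls. Over all tested genes 2352 were called in both, 38.8% of the DMSO calls and 50.2% of the ganciclovir calls, and 724 of them (30.8%) had opposite signs. The median fold change of up to 30 neighbouring genes on the chromosome was between -0.20 and 0.13 for every member in all 5 comparisons.

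**Figure D4:**
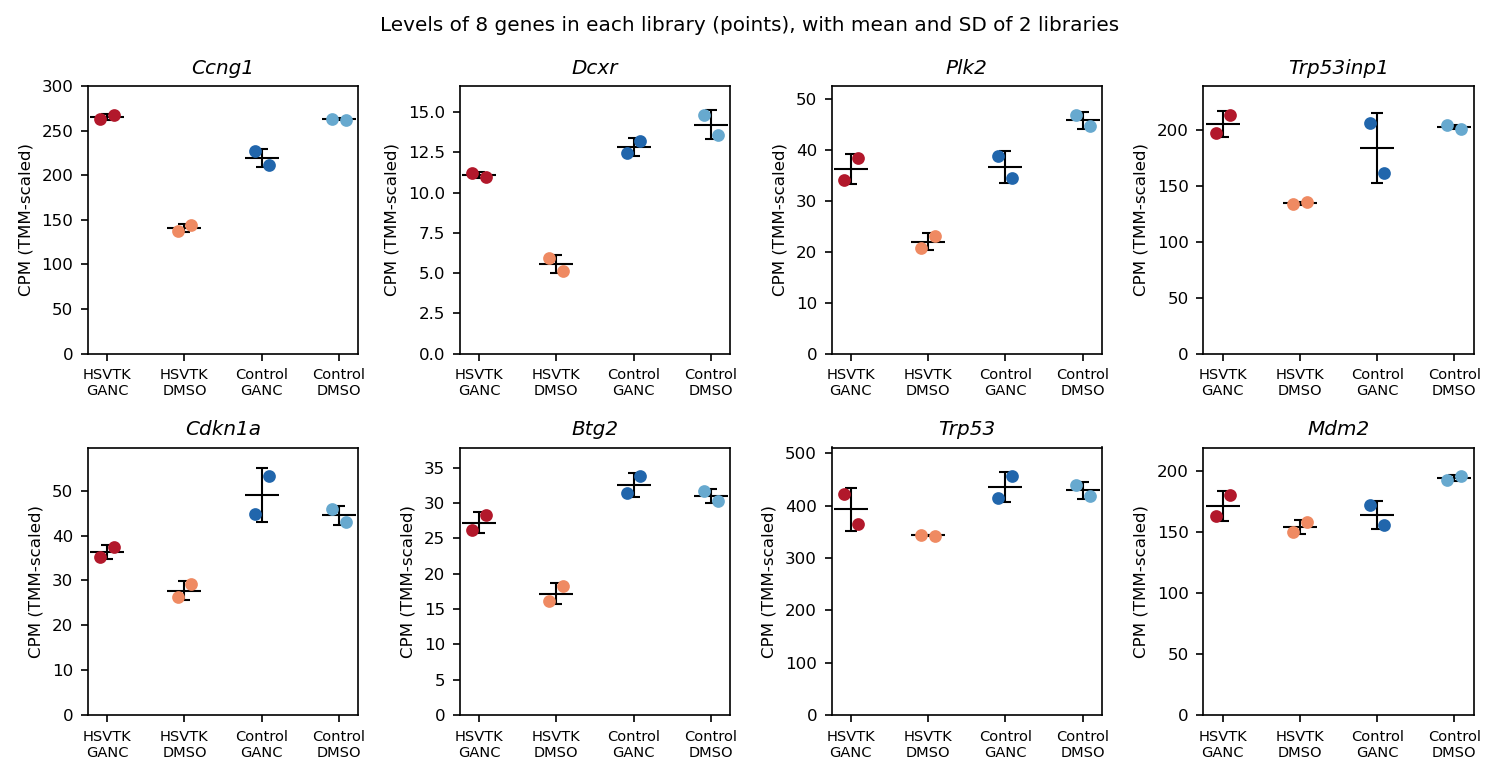
Level in CPM (y axis) of 8 members, Ccng1, Dcxr, Plk2, Trp53inp1, Cdkn1a, Btg2, Trp53 and Mdm2, in the 4 groups (x axis), with a point per library and the mean and SD of 2 libraries. HSVTK DMSO is the lowest group in each panel, and for Cdkn1a and Btg2 the HSVTK GANC libraries stay below both Control groups.

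Levels between genes can be set side by side only per length, in the deposited FPKM, which divides a count by gene length and library size. Trp53 had the highest mean over the 8 libraries, 98.9 FPKM, with a range of 84.9 to 111. Bax, Gtse1, Ccng1 and Sesn2 followed with means of 75.7, 69.9, 63.3 and 58.7 FPKM. The ranges of the first 4 overlapped their neighbours in the order, so only the order of means is given for them. All Sesn2 libraries lay above those of Ckap2, the next gene at 37.7 FPKM. Polk, Tnfrsf10b, Rrm2b and Fas closed the order with 2.64, 1.79, 0.625 and 0.165 FPKM.

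Other p53 targets, a list of 47 further genes of the pathway, were called in both directions: of 45 tested, 16 were called higher and 5 lower in HSVTK GANC than in HSVTK DMSO, with a median of 0.24. That is 35.6% higher and 11.1% lower, beside 13.3% and 15.2% of all tested genes. Perp, a p53-induced membrane protein of desmosomes, had 26.002 ± 3.05 CPM in HSVTK GANC, 8.37 ± 0.361 in HSVTK DMSO, 21.2 ± 0.299 in Control GANC and 27.6 ± 0.192 in Control DMSO (SD, n = 2 each). Its fold change was 1.64 ± 0.11 (adjusted p = 7.97e-12) in HSVTK cells, and those of Ptpn14, a phosphatase that restrains Yap, and Ak1, adenylate kinase, were 1.403 ± 0.13 (adjusted p = 1.96e-09) and 0.98 ± 0.08 (adjusted p = 1.87e-10). Pml, the scaffold of nuclear bodies, had 0.52 ± 0.07 (adjusted p = 6.43e-07). Steap3, a metalloreductase, and Ddit4, which restrains mTORC1, were lower with -1.12 ± 0.11 (adjusted p = 6.89e-09) and -0.62 ± 0.07 (adjusted p = 9.35e-08). Ddit4 had 63.7 ± 1.41 CPM in HSVTK GANC, 97.7 ± 6.43 in HSVTK DMSO, 119 ± 2.64 in Control GANC and 71.5 ± 1.55 in Control DMSO (SD, n = 2 each). In Control cells 2 of the list were called higher and 2 lower, 4.44% each way beside 4.73% higher and 3.35% lower of all tested genes, and Ddit4 there had 0.74 ± 0.07 (adjusted p = 6.46e-08), opposite to HSVTK. The difference of responses was called for 20 of the 45, with HSVTK the greater in 14 and the lower in 6, beside 11.6% and 14% of all tested genes.

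In HSVTK DMSO 21 of these 45 targets were called lower than in Control DMSO and 5 higher, and in HSVTK GANC 16 were called lower than in Control GANC and 4 higher. Of all tested genes 17.3% were lower and 16.4% higher under DMSO, and 14.9% lower and 11.1% higher under ganciclovir. Ptpn14 had -2.37 ± 0.12 (adjusted p = 9.35e-15) and Perp -1.72 ± 0.11 (adjusted p = 9.87e-13) under DMSO. Xpc, the damage sensor of nucleotide excision repair, had -0.97 ± 0.11 (adjusted p = 4.84e-08) under DMSO and -0.99 ± 0.11 (adjusted p = 6.11e-08) under ganciclovir. The median of the genes around Xpc on chromosome 6 was -0.85 and -0.98 in the same comparisons, so its values were close to those of its neighbours. Gadd45a, a stress protein that lies on chromosome 6 too, had -0.89 ± 0.10 (adjusted p = 3.53e-08) under ganciclovir beside -0.99 for its neighbours.

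Regulators of p53 were called in both directions: of 30 tested, 7 were higher and 7 lower in HSVTK GANC than in HSVTK DMSO, and 1 was higher and 3 lower with ganciclovir in Control cells. These are 23.3% each way in HSVTK, beside 13.3% higher and 15.2% lower of all tested genes. In Control they are 3.33% higher and 10% lower, beside 4.73% higher and 3.35% lower of all tested genes. Atm, the kinase that activates p53 after double-strand breaks, had 63.4 ± 2.34 CPM in HSVTK GANC, 41.3 ± 0.586 in HSVTK DMSO, 47.7 ± 3.98 in Control GANC and 55.8 ± 3.09 in Control DMSO (SD, n = 2 each). Its HSVTK fold change was 0.62 ± 0.08 (adjusted p = 9.78e-07), and that of Hexim1, a transcription elongation inhibitor reported to stabilise p53, was 0.57 ± 0.06 (adjusted p = 6.69e-08). Sirt1, a deacetylase of p53, had 0.31 ± 0.06 (adjusted p = 0.000396), and Setd7, a methyltransferase reported to act on p53, had -1.06 ± 0.15 (adjusted p = 3.09e-06). Ppp1r13b and Rpl5 of the same list were lower too, with -0.68 ± 0.15 (adjusted p = 0.000754) and -0.21 ± 0.05 (adjusted p = 0.00123). Trp53bp1, the break-repair protein 53BP1, had -1.36 ± 0.07 (adjusted p = 9.35e-15) in HSVTK over Control under DMSO and -1.29 ± 0.07 (adjusted p = 4.33e-14) under ganciclovir. Its neighbours on chromosome 2 had medians of -0.69 and -0.45.

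Genes that p53 lowers through p21 and the DREAM complex, which encode mitotic proteins, were lower or uncalled in HSVTK GANC: 11 of 20 were called lower than in HSVTK DMSO and 0 higher, with a median of -0.19, where 15.2% of all tested genes were lower and 13.3% higher. DESeq2 and limma on log2(FPKM + 1) also called 0 higher, and edgeR had 1 higher at an unadjusted p under 0.05. Ccnb2, cyclin B2, had 128 ± 2.36 CPM in HSVTK GANC, 185 ± 2.83 in HSVTK DMSO, 162 ± 1.14 in Control GANC and 157 ± 2.37 in Control DMSO (SD, n = 2 each), a fold change of -0.53 ± 0.06 (adjusted p = 8.34e-08). Bub1, a spindle checkpoint kinase, and Kif23, a kinesin of cytokinesis, had -0.52 ± 0.07 (adjusted p = 1.21e-06) and -0.41 ± 0.07 (adjusted p = 2.88e-05). In Control cells 1 of the 20, Top2a (DNA topoisomerase), was called lower, where 3.35% of all tested genes were, with -0.20 ± 0.06 (adjusted p = 0.0275), a call that did not hold on leaving out HSVTK DMSO replicate 1 (0.0688), HSVTK DMSO replicate 2 (0.0696), Control GANC replicate 2 (0.355), Control DMSO replicate 1 (0.0994) or Control DMSO replicate 2 (0.307). None was called higher there with edgeR, DESeq2 or limma, and 2 were higher at an unadjusted p under 0.05 with edgeR. The difference was called for 7, in each with HSVTK the lower, as it was for 14% of all tested genes. Between the cell groups under DMSO, 6 of the 20 were called higher and 3 lower in HSVTK, with a median of 0.08. Under ganciclovir 1 was called higher and 11 lower in HSVTK, with a median of -0.21. Of all tested genes 16.4% were higher and 17.3% lower under DMSO, and 11.1% higher and 14.9% lower under ganciclovir. Mad2l1, a spindle checkpoint protein, was lower in HSVTK than in Control with -1.09 ± 0.06 (adjusted p = 4.19e-14) under DMSO and -1.08 ± 0.06 (adjusted p = 9.4e-14) under ganciclovir, and its neighbours on chromosome 6 had medians of -0.98 and -0.99.

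**Figure D5:**
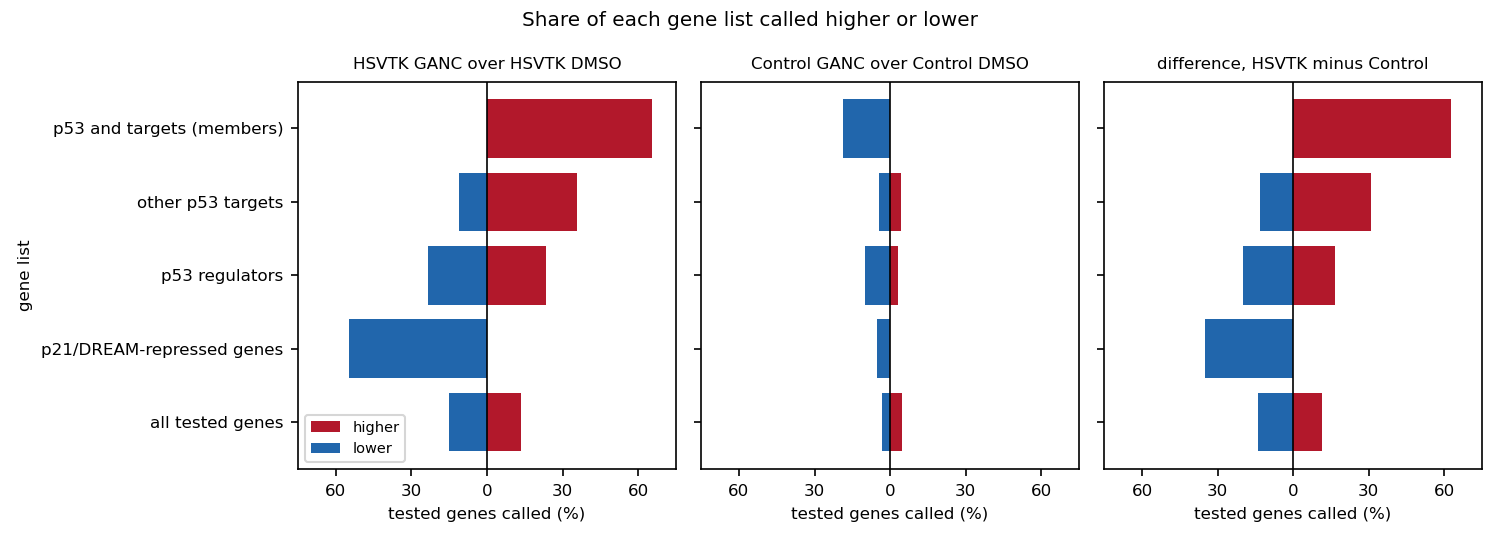
Percentage of tested genes called higher and lower (x axis) in the members, the other p53 targets, the p53 regulators, the p21 and DREAM list and all tested genes, for ganciclovir over DMSO in HSVTK cells, in Control cells, and for the difference. In HSVTK cells 65.6% of members are called higher, against 13.3% of all tested genes.

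Markers of cells other than stem cells also differed between the groups. The summed level of 12 primitive endoderm markers was 89.98 to 96.7 CPM in HSVTK GANC, 81.7 to 86.7 in HSVTK DMSO, 50.7 to 56.3 in Control GANC and 48.9 to 49.3 in Control DMSO. That of 12 fibroblast and feeder markers, of which 4 were tested, was 20.6 to 21.2 CPM in HSVTK GANC, 21.2 to 24.3 in HSVTK DMSO, 15.3 to 17.2 in Control GANC and 10.3 to 11.7 in Control DMSO. The 10 trophectoderm markers summed to 21.9 to 22.4 CPM in HSVTK GANC, 21.2 to 23.04 in HSVTK DMSO, 16.2 to 18.1 in Control GANC and 15.3 to 16.6 in Control DMSO, and the 10 mesoderm and primitive streak markers to 7.32 to 7.48 CPM in HSVTK GANC, 4.02 to 5.67 in HSVTK DMSO, 5.205 to 6.86 in Control GANC and 5.47 to 6.74 in Control DMSO. Of 11 tested primitive endoderm markers 6 were called higher in HSVTK GANC than in Control GANC and 4 higher in HSVTK DMSO than in Control DMSO, beside 11.1% and 16.4% of all tested genes. Fibroblast markers at 0 in both libraries were Postn, Dcn and Twist2 in HSVTK GANC, Col3a1, Postn, Dcn, Lum, Twist2 and Prrx1 in HSVTK DMSO, Twist2 and Prrx1 in Control GANC, and Col6a3, Postn and Lum in Control DMSO. Of the endoderm, trophectoderm and mesoderm lists, Tpbpa was at 0 in every group. Elf5 and Lhx1 were also at 0 in HSVTK GANC, Afp in HSVTK DMSO, and Hand2 and Lhx1 in Control DMSO. Summed primitive endoderm, fibroblast and trophectoderm markers were higher in both HSVTK groups than in both Control groups. The fibroblast sum did not hold for each marker. Of the 4 tested, 1 was called higher and 0 lower in HSVTK GANC than in Control GANC, beside 11.1% of all tested genes higher. Their log2 fold changes there ran from -1.93 to 0.62, with a median of -0.08. The part of such cells in the p53 results was not tested.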

How the data were processed

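RNA-seq counts per gene and FPKM values were deposited by the authors for all 8 libraries. Per the submitters' processing notes, fastp 0.23.2, HISAT2 2.1.0, featureCounts 2.0.1 and DESeq2 1.40.2 were used with build GRCm39; settings for strand and multimapping: not given in the sources used here. FPKM values as deposited equal count over length and library total within 1e-05.

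Counts of the 17976 genes passing edgeR's filterByExpr (minimum count 10) were fitted with edgeR 4.0.16 in R 4.3.3 (TMM, quasi-likelihood F test, 1 mean per group, all 8 libraries, 4 residual degrees of freedom), with Benjamini-Hochberg adjustment and calls under 0.05. The biological coefficient of variation was 6.31%. The script was tested on simulated data. DESeq2 1.42.0, limma 3.58.1 on log2(FPKM + 1) or log2(FPKM + 0.1), other scalings and filters, a replicate block and leaving out each library were alternatives. The 32 members, the pathway and marker lists and the tests were chosen with earlier results of these data known. Members could all be named, and up to 6 called genes with the lowest adjusted p per pathway list and comparison. Neighbours are the 15 tested genes of at least 5 CPM on each side in GENCODE vM21 order (97.7% of tested genes placed). A list is described by its calls and median, without a set test. The neuroectoderm marker list is not reported here.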

Additional observations from a re-analysis of the deposited data

Results flagged for a closer look

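The responses to ganciclovir differed between HSVTK and Control cells for 20 members, by edgeR's test of the difference (log2, HSVTK minus Control), and each is listed because its test passed. Ccng1 had 1.18, Dcxr 1.15 and Plk2 1.04. Polk had 0.85, Eda2r 0.75, Trp53inp1 0.75 and Pidd1 0.73. Values were 0.59 for Btg2, 0.57 for Ercc5, 0.52 for Phlda3 and 0.50 for Sfn. Mdm4 and Pmaip1 had 0.48 each. Bax had 0.45, Gtse1 0.42, and Mdm2 and Ckap2 0.40 each. Plk3 and Zmat3 had 0.38 each, and Tigar 0.35.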

How the results depend on the processing

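With 2 libraries a group, and a lone library assumed to vary like the other groups when its partner was left out, the calls are sensitive to single libraries. Over the members' fold changes, 2479 results of alternatives kept their side of the threshold, 179 dropped under it and 28 rose past it. Of results called in the main fit or the alternative, 0 reversed in sign. A change of sign was not counted for results uncalled in both. Of the calls, 12 of 21 (HSVTK drug), 0 of 6 (Control drug), 10 of 20 (difference), 15 of 24 (DMSO) and 3 of 14 (ganciclovir) held under all alternatives. Library size scaling moved the median of all genes by at most 0.0512.

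Limma on log2(FPKM + 1) and on log2(FPKM + 0.1) with no filter tests more genes. These called 2615 and 2678 genes in the HSVTK drug comparison, 29 and 47 in Control, 1981 and 2127 for the difference, 3652 and 3692 under DMSO and 2288 and 2381 under ganciclovir. Members called were 0 in Control with each limma setting, 12 for the difference with log2(FPKM + 1), and 4 and 3 under ganciclovir. Over the genes of the count filter, limma called 190 genes in Control, and edgeR on the 4 Control libraries alone called 942; the cause was not tested.

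Leaving out each library gave 14 to 22 members and 3313 to 5627 genes (HSVTK drug), 1 to 10 and 433 to 2010 (Control), 15 to 22 and 3415 to 4638 (difference), 21 to 25 and 4399 to 6560 (DMSO), and 9 to 15 and 2999 to 4497 (ganciclovir).

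Deviations of samples with the same replicate number were close to uncorrelated (r from -0.0319 to 0.0145 over the 6 pairs of groups). An r for each pair of groups cannot show whether some of the genes deviated alike. Whether samples of the same number shared a culture or preparation was not tested. With the replicate block, 20, 6, 20, 24 and 14 members were called in the 5 comparisons, and 4932, 1339, 4433, 5882 and 4517 genes.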
